A study of Anopheles gambiae with 104 samples.

Results

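A set of 51 transcript probe sets of the malaria mosquito Anopheles gambiae, out of 16884 on the array, met the criteria of a strong daily rhythm in bodies kept in constant dark and in no other arm of the study. A 24-h cosine curve was fitted by least squares to the time point means of each arm. A probe set was strong in an arm when its amplitude, the distance from the fitted mean to the fitted peak, was at least 0.5 on the log2 scale, R2 was at least 0.7 and the mean of the arm was at least 4. In all, 158 probe sets (0.936%) were strong in bodies in constant dark, against 380 (2.25%) in bodies in the light:dark cycle. Of these, 107 were also strong in bodies in the light:dark cycle or in heads under either regime, and the 51 left were strong in no other arm (0.302% of all). Amplitude, R2 and mean of all 4 arms therefore chose these members, and the peak hour came from the same fitted curves without being a criterion. All these quantities are given below as a description. Where limma calls made on them are counted, the share over all probe sets stands beside the count and nothing is read from it.

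The females were of the Pimperena strain (S form), mated but not blood fed, and 7 to 9 days old at the start. Each time point came from a pool of 20 to 30 mosquitoes, whose heads, with mouthparts and antennae, were separated from bodies, with appendages. The 4 arms were bodies in constant dark (DD), bodies in a light:dark cycle (LD) and heads under each of these regimes, each with 13 time points 4 h apart over 48 h and 2 arrays per time point. The LD cycle held 11 h of full light with dawn and dusk transitions of 1 h each. In DD collections spanned CT0 to CT48, where CT is circadian time and CT0 subjective dawn. In LD they spanned ZT12 to ZT60, where ZT is Zeitgeber time and ZT12 is lights off. DD collections therefore began 12 h after the last lights off and LD collections at lights off itself. Whether both arrays of a time point were hybridised from separate pools is not stated in the labels, so the spread between them may be technical, and neither regime was repeated.

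In insects the circadian clock is a feedback loop in which the proteins CLOCK and CYCLE switch on genes such as period and timeless, whose products return to the nucleus and shut off their own transcription. Light resets this loop through cryptochrome and other photoreceptors, and in constant dark the loop runs on by itself. Clocks run in the brain and also in organs of the body such as gut, fat body and Malpighian tubules, and female An. gambiae fly and bite mainly at night.

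No file used here gives the gene behind a probe set, and 0 probe set names matched the 15165 genes of the reference table used here, so members are named by probe set ID only and their functions are not given. Tissue markers could not be looked up for the same reason, and the labels of bodies and heads were not checked against them. In the IDs the part after "Ag." reads like a chromosome arm. It was 2L in 15 members, 2R in 15, 3R in 9, 3L in 7, X in 1 and UNKN in 4. The shares were 22.3%, 29.7%, 20.7%, 15.3%, 7.31% and 4.77% among all 6978 probe sets with a mean of at least 4 in bodies in DD, members included. The 51 members fell into 48 clusters by the number that follows, as 3 clusters held a pair of members each.

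Control probe sets differed between regimes. The difference between the 3′ and 5′ probe sets of dap, a bacterial transcript spiked into the RNA, lay between 2.93 and 3.67 on the log2 scale in bodies in DD and between 1.55 and 2.22 in bodies in LD. The same difference for Gapdh, a glycolytic enzyme, averaged 4.34 ± 0.58 in bodies in DD and 3.04 ± 0.46 in bodies in LD (SD, n = 13 time points each). For actin it averaged 2.72 ± 0.36 in DD and 2.09 ± 0.20 in LD. In heads the dap difference averaged 3.07 ± 0.26 in DD and 1.63 ± 0.18 in LD. That of Gapdh in heads averaged 4.40 ± 0.97 in DD and 2.59 ± 0.20 in LD, and that of actin 3.29 ± 0.63 and 2.25 ± 0.21. Both were highest in heads in DD at CT44, at 7.54 for Gapdh and 5.16 for actin. The effect of light and that of such differences in RNA or array processing between regimes cannot be told apart in the comparisons of DD with LD below.

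In bodies in DD 43 members had a fitted trough at or above 3.78, the background cutoff of bodies (the 95th percentile of the probe sets of a malaria parasite on the array, described below), and they changed by a median of 2.44-fold between fitted trough and fitted peak, with a range from 2.03-fold to 6.23-fold. In the other 8 members the fitted trough lay under the cutoff, so no fold is given for them. In whole bodies, fewer cells of a type and less RNA per cell cannot be told apart. Their amplitudes ran from 0.51 to 2.47 on the log2 scale (median 0.71), their R2 from 0.70 to 0.95 (median 0.80) and their means from 4.15 to 12.60 (median 7.40). Peaks fell around the whole cycle. There were 13 members with a peak from CT0 to CT6, the subjective morning, 8 from CT6 to CT12, 17 from CT12 to CT18, the early subjective night, and 13 from CT18 to CT24. Of the 107 probe sets that were strong in other arms as well, 29, 5, 54 and 19 peaked in the same spans.

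**Figure D1:**
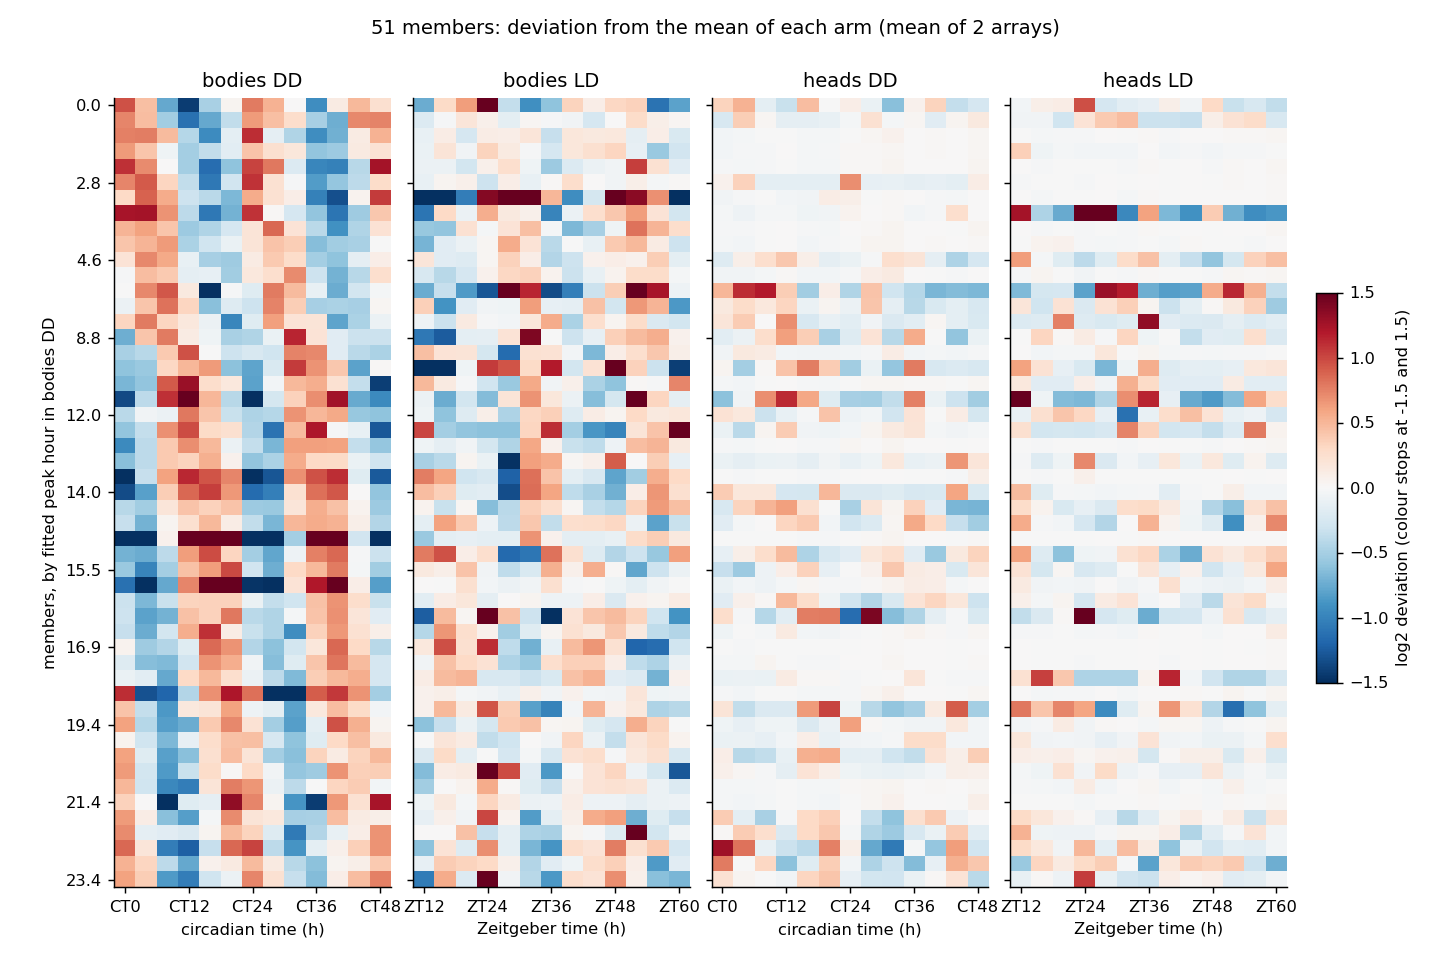
Deviation of the 51 members from their own mean in each arm (colour, log2, mean of 2 arrays), with 1 row per member ordered by fitted peak hour in bodies in DD and time on the horizontal axis. In bodies in DD the rows form a diagonal band on each of the 2 days, while in bodies in LD the rows repeat it in part and most rows in heads stay close to their mean.

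The median profiles of these 4 groups followed the peak hour that had defined them in DD, and their LD profiles differed from group to group. Members with a peak from CT12 to CT18 stood at a median of 0.63 above their own mean at CT16 and 0.68 above it at CT40, and their medians at CT4 and CT28 were -0.67 and -0.69. In LD the same 17 members had medians of 0.36 at ZT16 and 0.04 at ZT40. Members with a peak from CT0 to CT6 stood at 0.72 at CT4 and 0.39 at CT28 in DD, against 0.20 at ZT28 and 0.35 at ZT52 in LD. Members with a peak from CT6 to CT12 ran between -0.54 at CT0 and 0.65 at CT12 in DD, and between -0.68 at ZT16 and 0.44 at ZT32 in LD. At the same hours a day later their medians were -0.46 at CT24 and 0.52 at CT36 in DD, against -0.16 at ZT40 and 0.23 at ZT56 in LD. Members with a peak from CT18 to CT24 stood at -0.84 at CT8 and 0.60 at CT20 in DD, and ran between -0.24 at ZT36 and 0.32 at ZT24 in LD. A 24-h curve fitted to the Gapdh 3′ minus 5′ difference in bodies in DD had an amplitude of 0.47, a peak at 19.1 h and a low R2 of 0.33. At the same hour of day this difference was 3.85 at CT0, 4.72 at CT24 and 5.46 at CT48. With the Gapdh 3′ minus 5′ difference as a covariate in the limma fit 44 of the 46 members tested were called rhythmic in DD, among 427 of all 7325 probe sets tested. With that of actin 45 were, among 446 of all. The same DD curve had chosen the members, so nothing is read from these counts. Whether the control differences bear on the members' rhythm was not tested.

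**Figure D2:**
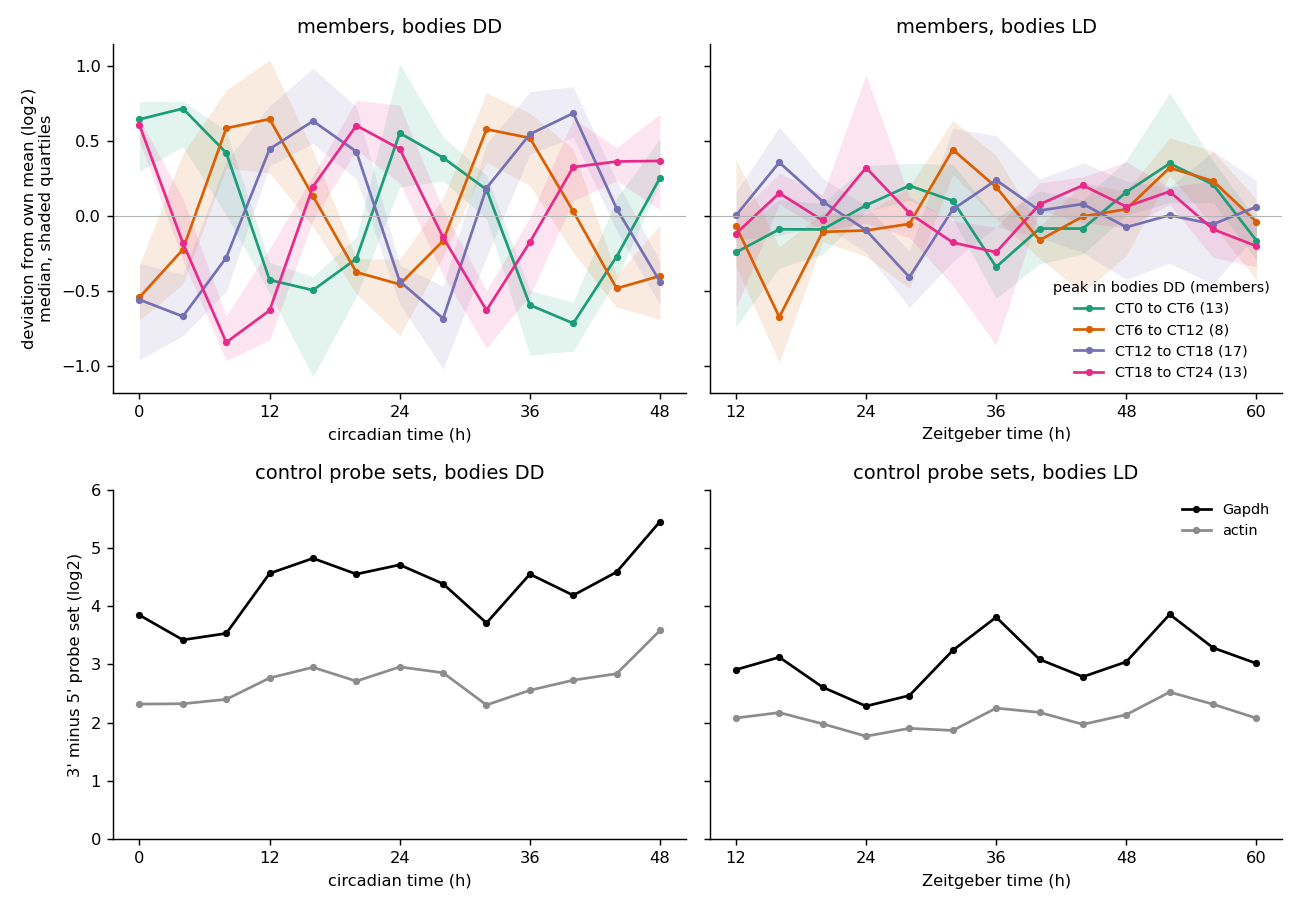
Upper panels: median deviation from the own mean (log2, shading from the first to the third quartile) of the members grouped by the span of their peak in bodies in DD, over hours in bodies in DD (left) and LD (right). Lower panels: log2 difference between the 3′ and 5′ probe sets of Gapdh and actin in the same arms, which was higher in DD (Gapdh 4.34 ± 0.58) than in LD (3.04 ± 0.46).

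The 2 members with the largest amplitudes were under the background cutoff in bodies in LD at all hours. Ag.UNKN.18.0_CDS_at ranged from 2.37 at CT4 to 7.52 at CT36 in bodies in DD, with a median time point of 4.23. In bodies in LD it lay between 1.77 and 3.0 with a median of 2.20, so only its DD troughs reached down to the LD values. Its amplitude was 2.47 in DD, with the peak at 14.4 h and a trough under the cutoff, and 0.26 in LD. Each replicate alone gave it a similar DD amplitude, 2.42 and 2.55, with peaks at 14.8 h and 14 h.

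Ag.2R.117.0_CDS_at ranged from 3.08 to 7.44 in bodies in DD (median 5.29) and from 3.04 to 3.42 in bodies in LD (median 3.17). It was at its lowest in DD at CT4 and at its highest at CT40, while its LD values varied by less than the 0.54 SD between its DD arrays. The amplitude was 1.98 in DD, with a peak at 15.5 h and a trough under the cutoff, and 0.09 in LD.

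Of the members with a peak before CT12, the 2 with the largest amplitudes also had low levels in LD. Ag.2L.939.0_CDS_at ranged from 2.70 to 5.97 in bodies in DD (median 3.94), against 2.28 to 4.55 in bodies in LD (median 2.94). Its amplitudes were 1.27 in DD and 0.64 in LD, with fitted peaks at 11.9 h and 6.46 h. Ag.UNKN.795.0_CDS_at ranged from 3.42 to 5.82 in bodies in DD (median 4.35) and from 2.93 to 4.52 in bodies in LD (median 3.39), with amplitudes of 1.11 and 0.36 and peaks at 2.37 h and 3.82 h. Both had their highest LD value at ZT52, the time point at which the 2 arrays differed most in bodies in LD (SD between arrays over the members 0.58, against 0.19 to 0.37 at the other LD time points).

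**Figure D3:**
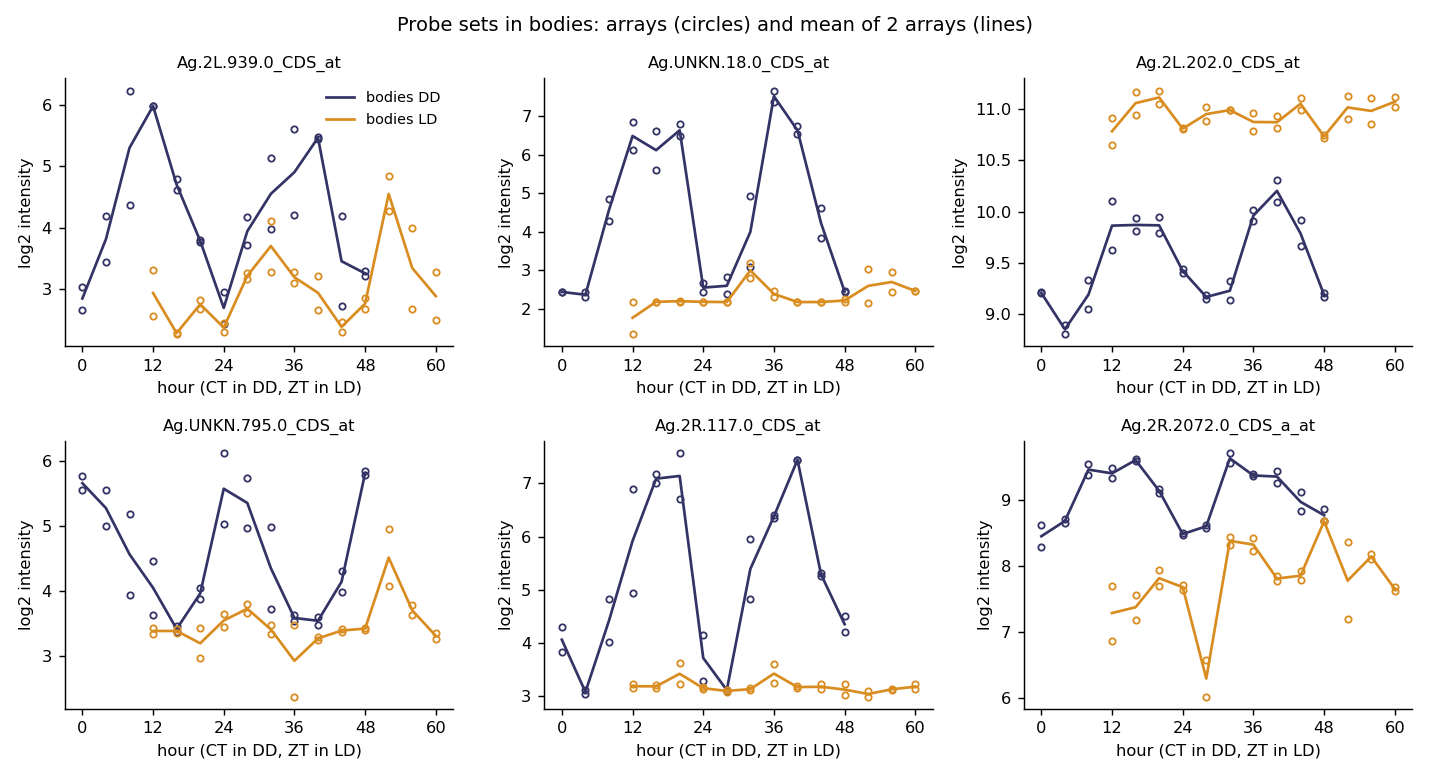
Log2 intensity over hours in bodies in DD (dark lines) and LD (light lines) for 6 probe sets, with circles for single arrays and lines for the mean of 2 arrays. The 4 panels on the left show the members with the largest DD amplitudes by part of the cycle (peaks before and after CT12), and the panels on the right the 2 members with the lowest LD amplitude among those with an LD mean of at least 4.

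The members failed the criteria in bodies in LD in different ways. Amplitude, R2 and mean all fell short in 13 members, amplitude and R2 in 16, R2 alone in 16, amplitude alone in 4, R2 and mean in 1 and mean alone in 1. The median amplitude was 0.71 in DD and 0.40 in LD, and the median R2 was 0.80 in DD and 0.50 in LD. The amplitude was larger in DD in 40 members, in 21 of them by at least 2 times, and larger in LD in 11. The residual SD around the curve had a median of 0.28 in DD and 0.29 in LD, an upper quartile of 0.37 in DD and 0.46 in LD, and a highest value of 0.73 in DD and 1.03 in LD.

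A daily component was present in LD in part of the members, without reaching the criteria. The LD amplitude was at least 0.5 in 18 members, and in 15 of these the DD and LD peaks lay within 4 h of each other. For Ag.2R.46.0_CDS_at the amplitude was 0.83 in DD and 1.94 in LD, the highest LD amplitude of any member, with peaks at 3.06 h in DD and 3.15 h in LD. It missed the criteria in LD by its R2 of 0.6955 alone. Ag.2L.778.0_CDS_at missed them by its LD amplitude of 0.4937, with an R2 of 0.81 and a mean of 7.27. Both were singled out after their values were seen. With looser criteria, an amplitude of at least 0.4, an R2 of at least 0.6 and a mean of at least 3.5, 15 members were strong in bodies in LD, and in heads 2 were strong in DD and 7 in LD. The share of all probe sets that met these looser criteria is not given, so nothing is read from these counts.

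Other members were above background in LD and still had almost no 24-h component there. Among the 36 members with an LD mean of at least 4, 6 had an LD amplitude under 0.25. The 2 lowest were named after their values were seen. Ag.2L.202.0_CDS_at ranged from 8.85 to 10.20 in bodies in DD (median 9.42) and from 10.73 to 11.11 in bodies in LD (median 10.98). Every DD time point lay below every LD time point, and the amplitude was 0.55 in DD and 0.03 in LD. Ag.2R.2072.0_CDS_a_at ranged from 8.45 to 9.64 in DD (median 9.14) and from 6.29 to 8.68 in LD (median 7.81). Its LD values moved by more than its DD values but without a daily pattern, as the amplitude was 0.51 in DD and 0.04 in LD with an LD R2 of 0.0024.

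**Figure D4:**
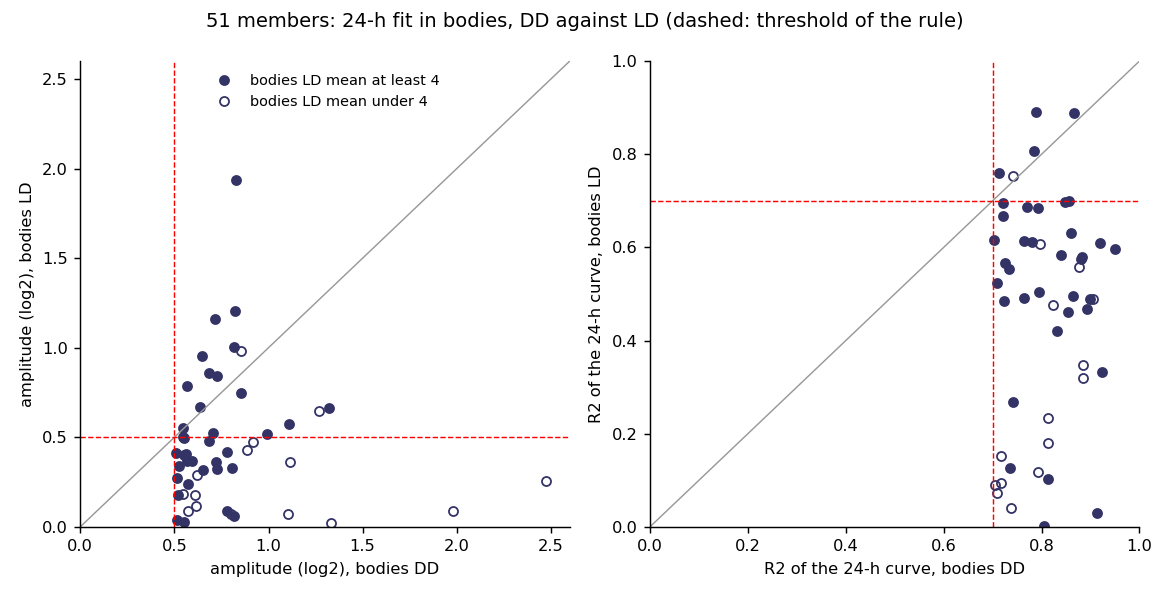
Amplitude (left, log2) and R2 (right) of the 24-h curve of each member in bodies in DD (horizontal axis) and in bodies in LD (vertical axis), with dashed lines at the thresholds of 0.5 and 0.7 and a grey line where both are equal. Filled circles have an LD mean of at least 4 and open circles a lower one, and 18 members lie at or above the amplitude threshold in LD.

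The same curves were also fitted in limma. A probe set entered the tests of a tissue when its mean over all arrays of that tissue exceeded the 95th percentile of the 4502 probe sets of the malaria parasite Plasmodium falciparum on the same array, which serve as background in unfed mosquitoes (3.78 in bodies and 3.75 in heads). This kept 46 of the 51 members in bodies and 21 in heads. With a Benjamini-Hochberg adjusted p under 0.05, 46 of 46 were called rhythmic in bodies in DD, against 6.69% of all 7325 probe sets tested, and 22 of 46 in bodies in LD, against 16% of all. The criteria fixed the count in DD and bear on that in LD, since the same curves chose the members. In heads, 6 of 21 were called in DD against 8.92% of all, and 10 of 21 in LD against 37% of all.

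In the joint fit of both body arms the rhythm differed in 15 of 46 members, against 5.28% of all. The amplitude was larger in DD in 13 of these (0.901% of all) and larger in LD in 2 (4.38% of all). The 13 became 5 on replicate 1 alone (33 of all 7325 probe sets) and 10 on replicate 2 alone (35 of all). With each array taken as a sample and a replicate block the counts were 22 and 7, among 282 and 933 of all. Of the 13, those with the lowest p were Ag.2R.117.0_CDS_at and Ag.2L.279.0_CDS_at. Ag.2L.279.0_CDS_at had amplitudes of 0.81 in DD and 0.33 in LD with peaks at 19.4 h and 5.73 h. The 2 with larger LD amplitude were Ag.2R.530.0_CDS_at and Ag.2R.56.0_CDS_at. Ag.2R.530.0_CDS_at had amplitudes of 0.64 in DD and 0.95 in LD and peaked at 16.2 h in DD and 23.4 h in LD. Ag.2R.56.0_CDS_at had amplitudes of 0.72 in DD and 1.16 in LD and peaked at 11.3 h in DD and 1.84 h in LD. Both therefore moved their fitted peak by more than 6 h between regimes.

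Replicates gave like curves in bodies in DD. The criteria favoured this, since the mean of the same 2 arrays chose the members, so it is given as a description. The peaks from replicate 1 and replicate 2 alone differed by a median of 0.43 h and at most 2.21 h. The median amplitude was 0.70 on replicate 1 and 0.69 on replicate 2. On replicate 1 alone 33 members met the criteria in bodies in DD, and on replicate 2 alone 36. The criteria of all 4 arms together were met by 31 of the 51 on replicate 1 alone and by 35 on replicate 2 alone. The amplitude was between 1.05 and 8.13 times the SD between the arrays of a time point, with a median of 3.32.

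The rhythm was present on both days of constant dark, as the single curve over 48 h required. The amplitude on the second day (CT24 to CT44), divided by that on the first day (CT0 to CT20), had a median of 0.94, and it was smaller on the second day in 34 members and larger in 17. All 51 peaks of the second day lay within 4 h of those of the first, with a median shift of -0.93 h, and 40 were earlier. The 107 probe sets strong in other arms as well had a median shift of -1.48 h in the same arm. In bodies in LD the members' median shift was -0.85 h, and 33 were earlier on the second day. For the level, second minus first day, limma called 0 of 46 members in DD (0.0273% of all called; 5 members with an unadjusted p under 0.05) and 0 of 46 in LD (0% of all; 3 members with an unadjusted p under 0.05).

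Members stood higher in bodies in DD than in LD more often than lower. The median level was 7.40 in bodies in DD and 6.20 in bodies in LD, and the median DD minus LD difference of the 46 members tested was 1.01, against 0.10 for all probe sets tested. After quantile normalization of the body arrays these medians were 0.91 and 0.0017. In limma 40 of 46 were called (85.7% of all), of which 31 were higher in DD (47.4% of all) and 9 lower (38.3% of all). The criterion on the mean held members at 4 or above in DD but not in LD, so this split is a description. In bodies in LD 12 members had a mean at or below the background cutoff.

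The largest differences in level left no overlap between the regimes. Ag.2R.71.4_CDS_a_at lay between 5.43 and 7.18 in bodies in DD (median 6.57) and between 2.84 and 3.87 in bodies in LD (median 3.31). Ag.2L.279.0_CDS_at lay between 9.38 and 11.16 in DD (median 10.24) and between 6.49 and 7.65 in LD (median 7.10). The fitted DD minus LD difference of Ag.2L.279.0_CDS_at was 3.07 ± 0.10 (SE), and none is given for Ag.2R.71.4_CDS_a_at, whose LD mean lay under the cutoff. In the other direction, Ag.2L.1077.0_CDS_at lay between 3.05 and 5.39 in DD (median 3.89) and between 6.42 and 8.14 in LD (median 7.66). Ag.2R.396.0_CDS_at lay between 10.63 and 12.05 in DD (median 11.31) and between 12.95 and 13.71 in LD (median 13.42). Their fitted differences were -3.46 ± 0.16 and -2.04 ± 0.07 (SE), and every DD time point of each lay below every LD time point.

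**Figure D5:**
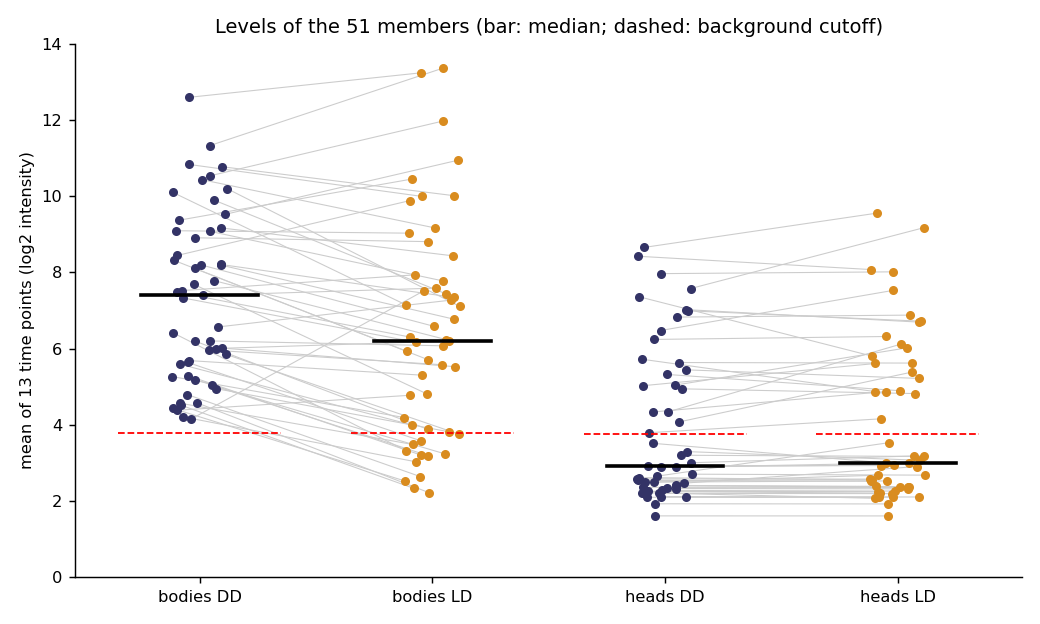
Mean log2 intensity over 13 time points of each of the 51 members in bodies (left, DD then LD) and heads (right, DD then LD), with grey lines joining DD and LD values of a member within a tissue, bars at the medians and dashed lines at the background cutoffs. Medians were 7.40, 6.20, 2.92 and 3.0 in this order, and 30 of the 51 members had a mean at or below the cutoff in each of the head arms.

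Most members had a higher level in bodies than in heads, which is a description because the criteria used the means of bodies and heads. The median level was 7.40 in bodies and 2.92 in heads in DD, and 6.20 in bodies and 3.0 in heads in LD. In heads in DD 21 of the 51 members had a mean above the background cutoff. For the 30 members at or below it a rhythm in heads could not be measured. In limma 45 of 46 members differed between bodies and heads in DD (92.5% of all), 42 of them higher in bodies (60.5% of all) and 3 lower (32% of all). After quantile normalization of all arrays 41 members were higher in bodies and 4 lower, and over all probe sets tested 3744 were higher and 3917 lower, against 5105 and 2698 without it. The median body minus head difference in DD was 3.0 for members and 0.52 for all probe sets as deposited, and 2.66 and -0.04 after it. In LD 44 of 46 differed (93% of all), 36 of them higher in bodies (59.2% of all) and 8 lower (33.7% of all). In DD the rhythm differed between bodies and heads in 33 of 46 (4.08% of all), a contrast the criteria had fixed.

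The members highest in bodies over heads were at background in heads at every hour. In LD, Ag.2R.396.0_CDS_at lay between 12.95 and 13.71 in bodies and between 2.31 and 2.41 in heads. Ag.2L.317.0_CDS_at lay between 12.69 and 13.58 in bodies and between 2.46 and 2.88 in heads in LD. In DD Ag.2L.317.0_CDS_at lay between 12.01 and 13.24 in bodies and between 2.45 and 2.52 in heads, and Ag.2R.397.0_CDS_at between 10.22 and 11.70 in bodies and between 1.59 and 1.62 in heads. Since the head values were under the cutoff, neither a fold nor a p-value is given for these.

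A few members were higher in heads. Ag.3R.1120.0_UTR_at lay between 2.98 and 3.51 in bodies in LD, under the cutoff, and between 6.53 and 7.34 in heads in LD. In bodies in DD it stood above the cutoff, between 3.91 and 5.78, while heads in DD stood between 6.59 and 7.20, so its body rhythm, with an amplitude of 0.80, ran below the head level. Ag.2R.821.0_CDS_at lay between 2.71 and 4.70 in bodies in LD and between 5.86 and 6.84 in heads in LD. Its mean in bodies in LD, 3.20, was also under the cutoff, so no p-value is given for either LD contrast. Ag.2L.1015.1_CDS_a_at lay between 5.18 and 6.72 in bodies in DD and between 6.39 and 7.38 in heads in DD, with some overlap.

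In heads members differed between regimes in both directions. The control differences between regimes given above apply to heads as well. As neither regime was repeated, the p-values rest on the spread between time points of a single course per regime. Of the 21 members tested 14 were called (73% of all), 6 of them higher in DD (43.5% of all) and 8 lower (29.5% of all), with a median DD minus LD difference of -0.06 against 0.08 for all probe sets tested. Ag.2R.892.0_CDS_at lay between 6.83 and 7.92 in heads in DD (median 7.33) and between 4.89 and 6.52 in heads in LD (median 5.79), a difference of 1.62 ± 0.08 (SE; limma adjusted p = 2.68e-14). Ag.2L.316.0_CDS_at lay between 5.03 and 6.34 in DD and between 4.25 and 5.31 in LD, with overlap and a difference of 0.91 ± 0.09 (SE; limma adjusted p = 2.33e-09). Ag.2R.56.0_CDS_at lay between 3.76 and 5.12 in heads in DD and between 5.43 and 6.72 in heads in LD, a difference of -1.73 ± 0.12 (SE; limma adjusted p = 6.17e-12). Ag.2L.202.0_CDS_at lay between 7.13 and 8.07 in heads in DD and between 8.77 and 9.46 in heads in LD, a difference of -1.57 ± 0.06 (SE; limma adjusted p = 2.11e-16), and so was lower in DD in both tissues.

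Of the 51 members 15 shared a cluster with another probe set, and 3 clusters held a pair of members, both chosen by the same criteria. Ag.2R.117.1_CDS_a_at peaked at 15.5 h in bodies in DD like Ag.2R.117.0_CDS_at, with an amplitude of 0.78 in DD and 0.42 in LD. Ag.UNKN.18.1_s_at peaked at 13.3 h in DD with an amplitude of 1.32 in DD and 0.66 in LD, and its LD mean of 8.43 was above the cutoff, unlike that of Ag.UNKN.18.0_CDS_at. The members of the remaining pair, both on 2L, peaked in bodies in DD at 0.05 h and 23.4 h with amplitudes of 0.82 and 0.73, and in LD at 22 h and 22.8 h with amplitudes of 1.0 and 0.84. The other 14 partners were not members, and 7 of them had a mean of at least 4 in bodies in DD. Of these 7, 4 had a fitted peak within 4 h of that of their member. Among these 4, Ag.3R.224.0_CDS_a_at had an amplitude of 0.15 and an R2 of 0.21 in DD, too low for its peak hour to be read. Strong in bodies in DD were 2 of the 4. Ag.2R.46.0_CDS_a_at had an amplitude of 1.07 in DD and 2.15 in LD and peaked at 3.66 h in DD, and Ag.3L.493.0_UTR_a_at had 0.86 in DD and 1.02 in LD and peaked at 5.05 h in DD. Both also met the criteria in LD, with an R2 of 0.70 and 0.74. The 3 others all shared a cluster with Ag.2R.71.4_CDS_a_at and had R2 values of 0.03 to 0.27 in DD, too low for a peak hour to be read. Partners may measure other transcripts of the cluster or other genes, which the files do not say.

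The thresholds cut through a continuous range. Just inside the amplitude threshold in bodies in DD lay Ag.3R.224.0_UTR_a_at with 0.5098 and Ag.2L.317.0_CDS_at with 0.5128, and just outside lay Ag.2R.1097.0_CDS_a_at with 0.4981 and Ag.2R.1794.0_CDS_a_at with 0.4963. Just inside the R2 threshold lay Ag.3L.493.0_CDS_a_at with 0.7032 and Ag.2R.2142.0_CDS_at with 0.7046, and just outside lay Ag.2R.938.1_CDS_a_at with 0.6911. When the other arms also had to stay clear of the thresholds, with an amplitude under 0.4, an R2 under 0.5 or a mean under 3.5 in each, 27 of the 51 members were left.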

How the data were processed

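The authors deposited log2 values, which were made with GCRMA according to the notes of the submitters on processing. Per the labels' protocols, RNA was extracted with TRIzol and labelled with the Affymetrix 3′IVT Express kit. No version of GCRMA is stated, nor which arrays it took together. The table held 22761 probe sets on 104 arrays, with values from 0.69 to 15.63 and array medians from 2.89 to 3.18, and the number of arrays limits the precision.

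The 2 arrays of each time point were averaged. Members were found with numpy 2.4.6 and pandas 2.3.3. Rhythm was tested as the F-test of a cosine and a sine term in limma 3.58.1 (R 4.3.3, lmFit and eBayes) over 13 time point means, regimes were compared in a joint fit, tissues as differences at each time point and days as differences 24 h apart. P-values were adjusted by Benjamini-Hochberg over all Anopheles probe sets above the background cutoff. The unit of each test was the time point, since its 2 arrays had been averaged. The fits were tested on simulated data.

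The members, lists and tests were chosen with earlier results of these data known. The gene lists and tissue markers could not be assigned without a table of genes and were not tested. IDs were named by rule, at most 2 in each direction per comparison, by amplitude with replicate peaks within 4 h or by a level difference whose sign both replicates shared, and others only where said. Alternatives and probe sets under other names are covered in the closing section. Deviations of same-numbered arrays from different time points correlated with a median r of 0.05 in bodies in DD, with a range from -0.23 to 0.39. In bodies in LD the median r was 0.17 and the range 0.0015 to 0.40, so all were positive there. The main fits used the mean of the 2 arrays and held no replicate term.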

Additional observations from a re-analysis of the deposited data

Results flagged for a closer look

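The rhythm of 13 members differed between regimes in bodies with the larger amplitude in DD, and that of 2 members with the larger amplitude in LD, by the interaction test of the joint limma fit. Over all probe sets tested the shares were 0.901% and 4.38%. In DD the rhythm of 33 members differed between bodies and heads by the test on paired time points (4.08% of all). The criteria that chose the members fixed these contrasts in part, and members under the background cutoff in a compared arm could be among those called.

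Among the 1231 probe sets under other names, which do not give an organism, 2 met the same criteria (0.162%), and among the 4502 probe sets of P. falciparum 0 did, where the mean of at least 4 lies above the 95th percentile of these probe sets. In bodies in DD limma gave 461 of the 4502 (10.2%) an unadjusted p under 0.05 for rhythm, and 0 after adjustment. These probe sets were not used in the comparisons.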

How the results depend on the processing

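The number of members lay between 36 and 65 with other thresholds (25 to 50 shared with the 51, fewest at an R2 of at least 0.8), between 45 and 56 on 1 replicate (31 and 35 shared with the 51), between 48 and 63 without 1 time point of bodies in DD and at 51 after quantile normalization, where 45 were shared with the 51. A gap around the thresholds in the other arms left 27. Without ZT52 in bodies in LD, chosen after seeing the data, there were 52, of which 49 were shared, as Ag.2L.778.0_CDS_at and Ag.3L.572.0_CDS_at became strong in LD. Calls of rhythm in bodies in DD stayed at 46 without any 1 time point, among 354 to 530 of all 7325 probe sets tested. They were 40 on replicate 1 alone and 40 on replicate 2 alone, among 267 and 275 of all. Ranks of the time points gave 0 calls in limma, with 46 members at an unadjusted p under 0.05 and 0 calls among all probe sets; the cause was not tested. In bodies in LD the 22 calls became 12 and 20 on single replicates, among 929 and 821 of all 7325. They became 18 without ZT52 (1074 of all) and 11 with no filter (886 of 16884), where more probe sets were tested. Called members with a larger amplitude in DD than in LD numbered 5 without replicate 2 (33 of all 7325) and 10 without replicate 1 (35 of all), instead of 13. Taken as single arrays with a replicate block, 22 called members had the larger amplitude in DD and 7 in LD, among 282 and 933 of all. Without the block the counts were also 22 and 7, among 271 and 918 of all. In both fits each array counted as a time point. The rhythm difference between bodies and heads was called in 20 members on replicate 1 alone and 22 on replicate 2 alone instead of 33, among 194 and 195 of all 8438. Counts of level and day differences stayed within 1.5 times under all alternatives run, and none of the 168 values of single named probe sets reversed, lost its call or, for amplitudes, moved by more than the SD between arrays. If both arrays of a time point came from 1 pool, the single-array fits overstate the number of samples. Values under the background cutoff, as in heads for 30 members, give no measured level.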
